A study of Mus musculus with 14 samples.

Results

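Ion channel genes were followed through 5 sorted populations of the mouse mammary epithelium. The genes were chosen by symbol, with no measured value in the rule, but with earlier results of these data known. Taken were voltage-gated and other potassium channel subunits, sodium, calcium and chloride channel families, anoctamins, and TRP (transient receptor potential) and Piezo channels. Intracellular calcium release channels, GABA and ionotropic glutamate receptor subunits, and aquaporins were taken as well. Of 6044 named genes in the expression table, 53 were members, measured by 81 of 9645 probe sets. The table holds only probe sets that passed a filter of the authors on signal and on a 4-fold difference between arrays, so channel genes without such a difference were not analysed here, nor were 2 genes of the same families.

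Cells came from mammary glands of virgin female C57BL/6 mice aged 6 to 8 weeks, with no transgene or treatment in any group, and were stained for Thy-1, CD24, CD49f and the blood, endothelial and red cell antigens CD45, CD31 and Ter119, then sorted a second time before RNA was taken. The 14 arrays comprised 2 from the CD24medCD49f-/low gate and 3 from every other gate, namely Thy-1+CD24medCD49fhigh, then Thy-1-CD24medCD49fhigh, CD24medCD49fmed and CD24highCD49fmed. The Thy-1+CD24medCD49fhigh, CD24medCD49fmed and Thy-1-CD24medCD49fhigh gates are basal, and the other two are luminal. Whether each replicate was another animal or pool is not stated, so a p-value here measures only the spread between these arrays. In bulk RNA, fewer cells of a type and less RNA per cell cannot be told apart.

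The mammary duct is made of an inner layer of luminal cells, which secrete milk and move salt and water, and an outer layer of basal cells, most of them contractile myoepithelial cells that resemble smooth muscle. Ion channels set the membrane potential, admit the calcium that drives contraction and secretion, and pass chloride and potassium across the epithelium, with aquaporins letting water follow. Some of the proteins counted here are accessory subunits, which change how a pore opens or where it is placed but carry no current themselves.

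All values are log2 expression centred by the authors on each probe set's mean over the 14 arrays, and probe sets of a gene were averaged. A value of 0 is therefore the gene's own average, and values can be compared between arrays but not between genes. Marker genes separated the luminal from the basal gates, and do not bear on the gates within a layer. The median of 10 basal and myoepithelial markers, such as Krt14 and Acta2, lay between 0.07 and 2.16 in the basal arrays and between -2.79 and -2.55 in the luminal arrays, and that of 13 luminal markers between -1.62 and -0.14 and between 1.35 and 2.12. The lowest basal marker median of a basal array, 0.07, was that of Thy-1-CD24medCD49fhigh replicate 2, whose other replicates had 2.11 and 2.16. Replicates 1 and 3 of the Thy-1+CD24medCD49fhigh cells stood apart, with medians over all probe sets of -0.75 and -0.52 where the other 12 arrays lay between -0.15 and 0.29. Fibroblast markers had medians of 2.14 and 2.89 in those 2 arrays and no more than 0.71 elsewhere, and endothelial markers had medians of 2.79, 1.16 and 2.91 in the replicate 1 arrays of the Thy-1+CD24medCD49fhigh, Thy-1-CD24medCD49fhigh and CD24medCD49fmed populations.

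**Figure D1:**
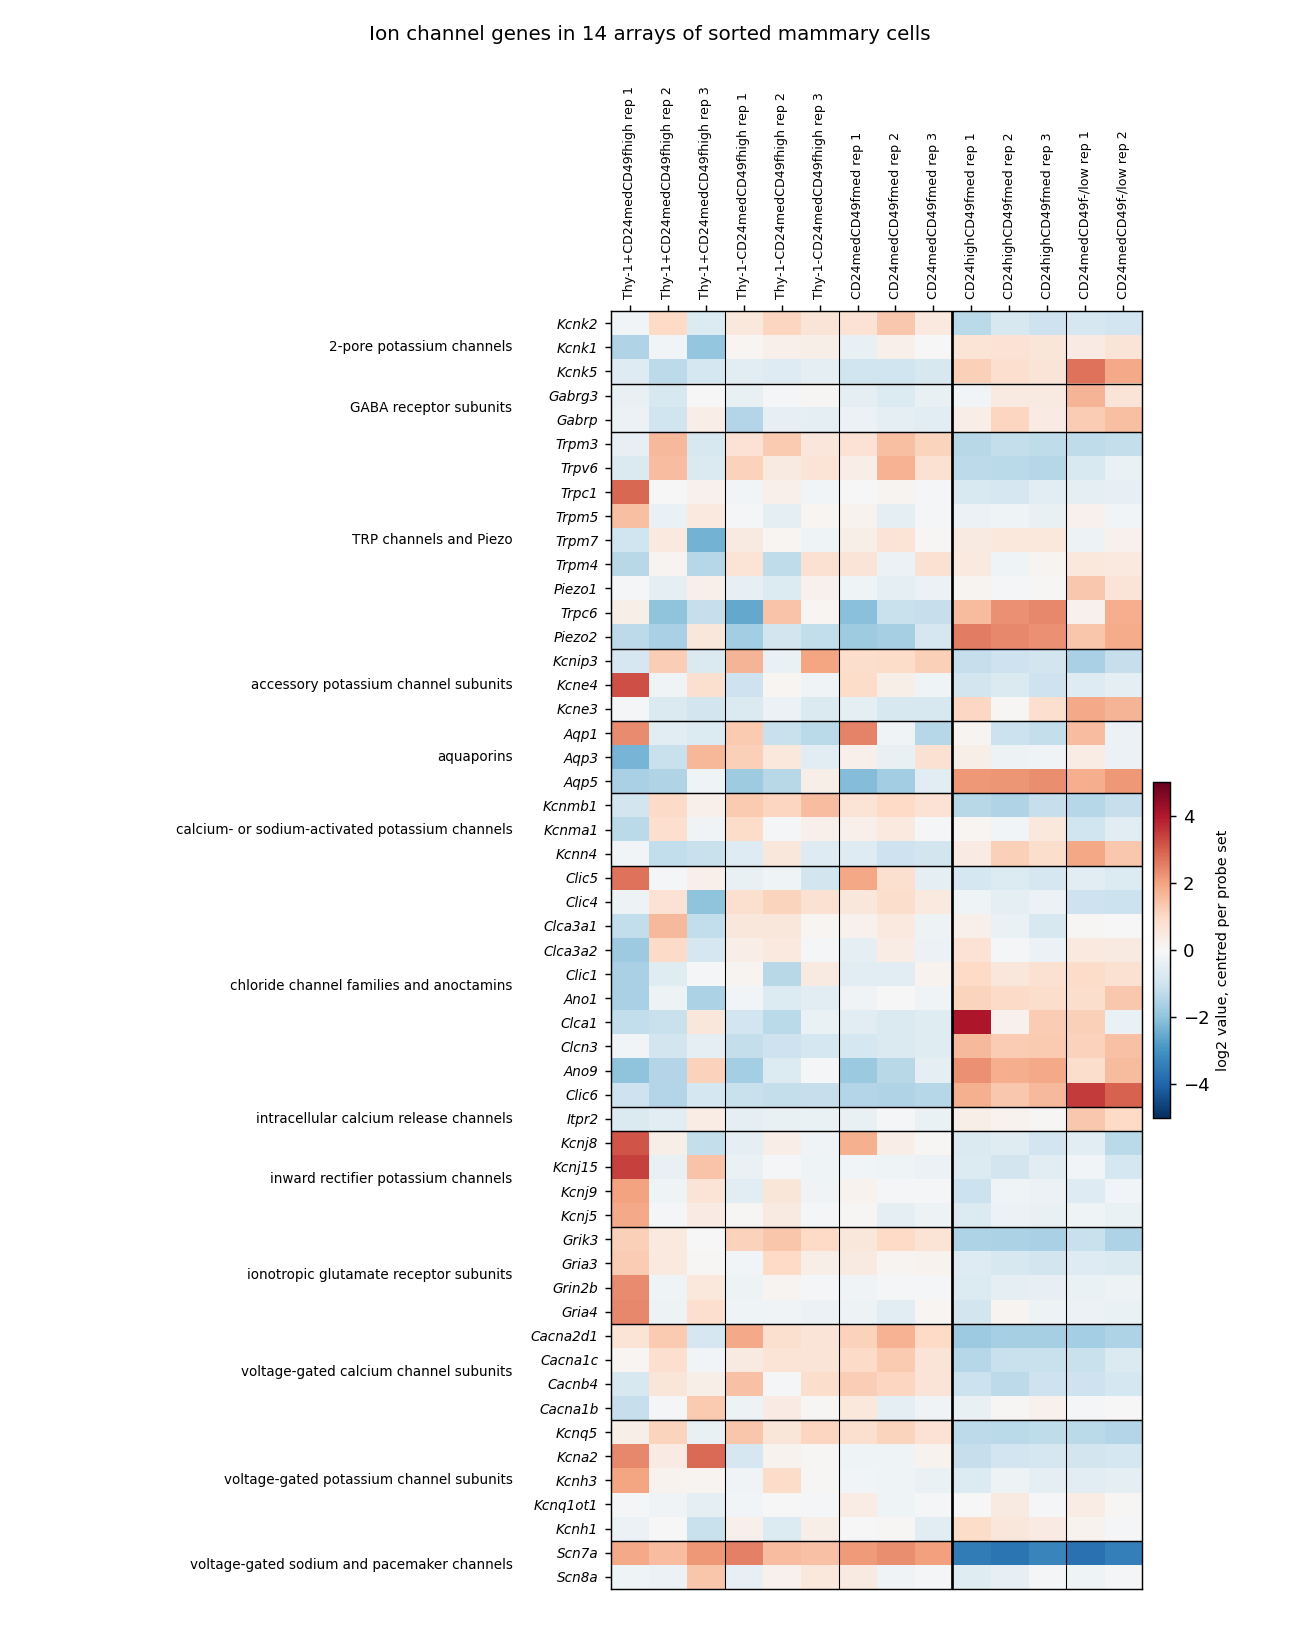
Centred log2 values of the 53 ion channel genes (rows, grouped by role and ordered within a group by the luminal minus basal difference) in 14 arrays (columns). The heavy vertical line separates 9 basal from 5 luminal arrays. Scn7a, just above the bottom row, has the strongest contrast, and the first column holds the highest value of 12 genes.

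The main contrast set the mean of both luminal populations against the mean of the 3 basal populations. Of the 53 channel genes, 17 were higher in the luminal populations (32.1%, against 27.7% of all 7190 rows tested) and 17 were lower (32.1%, against 17.4% of all rows). Together 34 passed the test (64.2%, against 45.1%), and 19 did not. Of the chloride channel families 6 of 10 were higher in luminal cells, as were both GABA receptor subunits and both mechanically activated Piezo channels, while 3 of 4 calcium channel subunits, 2 of 4 glutamate receptor subunits and the sodium channel Scn7a were lower. The median difference was -0.24 over the channel genes and 0.33 over all rows. With each array centred on its median, which moves the median of all rows to 0.06, 16 channel genes were higher (20% of all rows) and 20 lower (21.7%). The test was limma over all rows, and a gene was called at an adjusted p (Benjamini-Hochberg) below 0.05. Differences are luminal minus basal on the log2 scale.

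The calls differed in how cleanly the arrays separated. In 9 genes every luminal array lay above every basal array (16.5% of all rows), and in 13 every luminal array lay below (9.51% of all rows). All 9 of the first and 11 of the second passed the test. Of the 34 called genes, 26 were called in each of 21 alternative fits, and none changed sign in any of them. The exceptions, with the number of the 21 fits that called them, were Clca1 (19), Clic4 (18), Clic5 (8), Gabrg3 (20), Kcne4 (13), Kcnj8 (13), Kcnk1 (20) and Piezo1 (14).

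**Figure D2:**
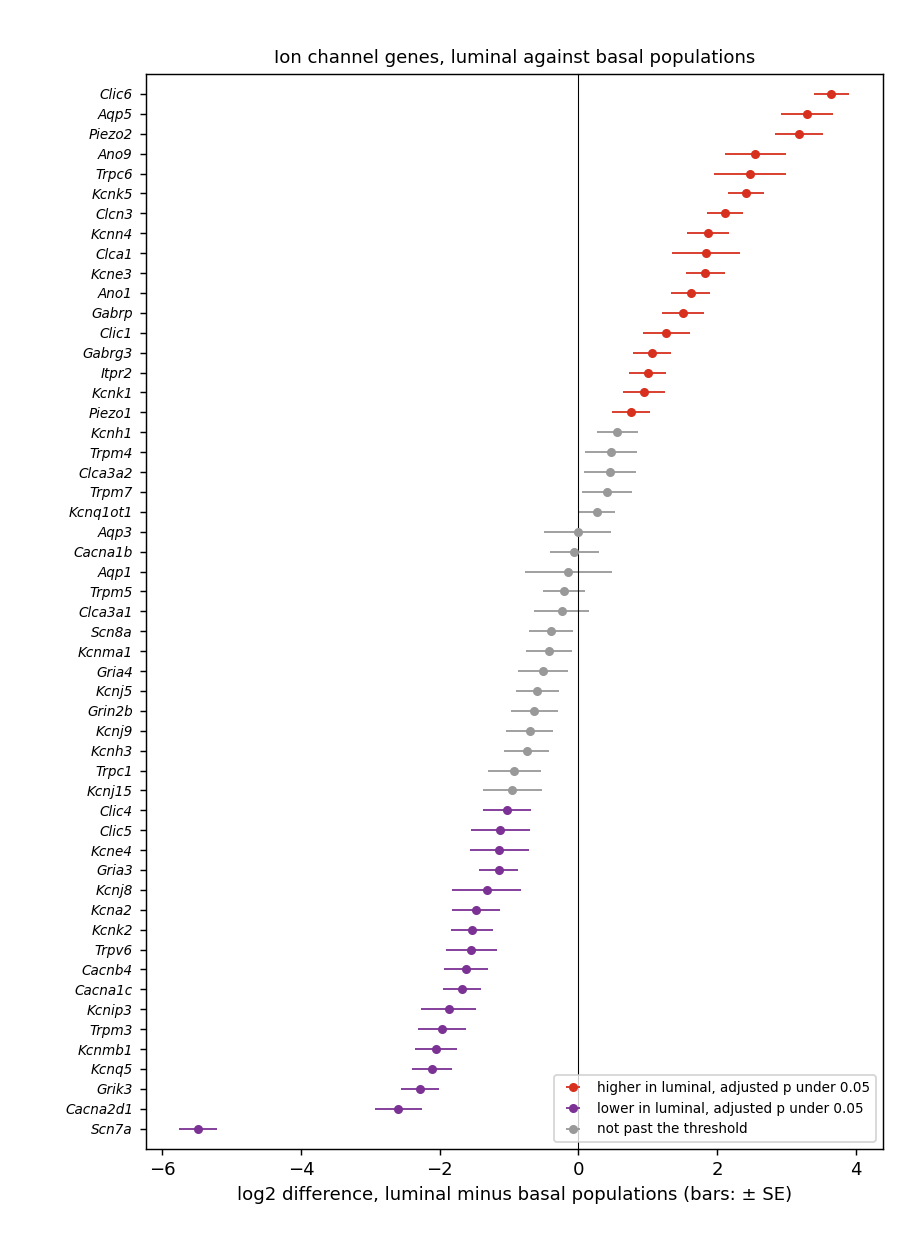
Log2 difference of each channel gene, mean of 2 luminal minus mean of 3 basal populations, with bars of ± SE from the limma fit on 14 arrays. Scn7a lies at -5.48, far from the next gene, and Clic6 at 3.65 is the highest.

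The sodium channel family held the widest difference. Scn7a encodes an atypical sodium channel, Nax, which responds to extracellular sodium rather than to voltage. Its values were 1.90, 1.54 and 2.16 in Thy-1+CD24medCD49fhigh, 2.52, 1.53 and 1.45 in Thy-1-CD24medCD49fhigh and 2.11, 2.34 and 2.05 in CD24medCD49fmed arrays. They were -3.48, -3.66 and -3.31 in CD24highCD49fmed and -3.73 and -3.41 in CD24medCD49f-/low arrays. The ranges were far apart, and the basal populations overlapped one another, as did the luminal ones. The difference was -5.48 (SE 0.27, limma adjusted p = 2.18e-11), a 44.7-fold lower level in luminal cells, and each of its 3 probe sets was lower, with differences of -4.42, -5.63 and -6.40. Scn8a, a voltage-gated sodium channel of neurons, had a difference of -0.40 that did not pass.

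Of 4 voltage-gated calcium channel subunits, 3 were lower in luminal cells and none was higher. Cacna2d1 encodes the alpha2delta subunit, which helps the pore reach the membrane. It ranged from -0.84 to 1.89 with a median of 0.99 in the 9 basal arrays and was -1.83, -1.67, -1.66, -1.69 and -1.54 in the 5 luminal arrays, with no overlap. The lowest basal array was replicate 3 of the Thy-1+CD24medCD49fhigh cells. The difference was -2.60 (SE 0.34, adjusted p = 5.09e-06), and its 5 probe sets ran from -2.93 to -2.15. Cacna1c, the pore of the L-type channel that brings calcium into contracting smooth muscle, was lower (-1.68, SE 0.27), and so was Cacnb4, a cytoplasmic beta subunit (-1.62, SE 0.31). Cacna1b, the pore of the N-type channel of nerve endings, differed by -0.06 and did not pass.

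Potassium channel genes were called in both directions, also within subfamilies. Kcnmb1 encodes the beta1 subunit that raises the calcium sensitivity of the large-conductance potassium channel in smooth muscle. It ranged from -0.91 to 1.53 with a median of 0.96 in basal arrays and was -1.40, -1.50, -1.15, -1.41 and -1.15 in luminal arrays, again without overlap. The difference was -2.05 (SE 0.30, adjusted p = 1.93e-05). Kcnma1, the pore that this subunit joins, did not pass the test, with a difference of -0.42 (95% interval -1.12 to 0.27), and every luminal array lay within its basal range of -1.34 to 0.90. Kcnn4, the intermediate-conductance calcium-activated channel, was higher in luminal cells by 1.87 (SE 0.31). One basal array, replicate 2 of the Thy-1-CD24medCD49fhigh cells at 0.57, lay within its luminal range of 0.41 to 1.94.

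Among 5 genes matched by the symbols of voltage-gated potassium channels, 2 were lower in luminal cells and none was higher. Kcnq5, a pore of the slow M-type current, ranged from -0.36 to 1.39 in basal arrays and from -1.47 to -1.28 in luminal arrays, a difference of -2.11 (SE 0.29, adjusted p = 7.27e-06). Kcna2, a delayed rectifier, was lower (-1.48, SE 0.35). Kcnh3 at -0.75 and Kcnh1 at 0.56 did not pass. Kcnq1ot1, a noncoding antisense RNA that shares only the symbol, differed by 0.27 and did not pass.

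The 3 accessory potassium subunits all passed. Kcnip3, a calcium-binding partner of Kv4 channels, was lower (-1.87, SE 0.39), and so was Kcne4, a single-pass subunit that dampens potassium currents (-1.14, SE 0.42). Kcne4 reached 3.24 in replicate 1 of the Thy-1+CD24medCD49fhigh cells. Its basal range of -1.02 to 3.24 overlapped the luminal range of -1.04 to -0.47. Kcne3, the subunit that holds Kcnq1 channels open in secretory epithelia, was higher by 1.83 (SE 0.28), at 1.02, 0.07 and 0.84 in CD24highCD49fmed and 1.90 and 1.69 in CD24medCD49f-/low arrays against -0.93 to -0.07 in basal arrays. The 2-pore channels, which carry background potassium current, did so too. Kcnk5, an alkali-activated channel of transporting epithelia, ranged from -1.31 to -0.46 in basal arrays. It was 1.18, 0.84 and 0.66 in CD24highCD49fmed and 2.73 and 1.90 in CD24medCD49f-/low arrays, all above the basal range, a difference of 2.41 (SE 0.26, adjusted p = 5.68e-07). Kcnk1 was higher by 0.94 (SE 0.30) and the stretch-sensitive Kcnk2 lower (-1.54, SE 0.31), neither with overlapping arrays.

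Inward rectifiers had 1 call of 4. Kcnj8, the pore of a vascular ATP-sensitive channel, was lower in luminal cells (-1.32, SE 0.50, adjusted p = 0.0366), and Kcnj15, Kcnj9 and Kcnj5 differed by -0.95 to -0.59 without passing. Kcnj8 reached 3.13 and 1.79 in the replicate 1 arrays of Thy-1+CD24medCD49fhigh and CD24medCD49fmed cells, and the other basal arrays lay between -1.18 and 0.35, across the luminal range of -1.33 to -0.57.

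The chloride channel families and anoctamins were the group with most luminal calls, 6 higher and 2 lower of 10, with a median difference of 1.44. Clic6, one of the chloride intracellular channel proteins, ranged from -1.51 to -0.86 in basal arrays. It was 1.79, 1.34 and 1.63 in CD24highCD49fmed and 3.48 and 2.96 in CD24medCD49f-/low arrays. The difference was 3.65 (SE 0.26, adjusted p = 2.37e-09), a 12.5-fold higher level, although its 2 probe sets gave 2.11 and 5.18. Clcn3, an endosomal chloride and proton exchanger, was higher by 2.12 (SE 0.26), with luminal arrays at 1.17 to 1.62 and basal arrays at -1.18 to -0.13. Ano1, a calcium-activated chloride channel of secretory epithelia, was higher by 1.62 (SE 0.29), at 0.87 to 1.33 against -1.61 to -0.01.

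The other members of that group were less even. Ano9, an anoctamin linked to lipid scrambling, was higher by 2.55 (SE 0.44), with 1 basal array, replicate 3 of the Thy-1+CD24medCD49fhigh cells, at 1.17 inside the luminal range. Clic1 was higher by 1.26 (SE 0.34) without overlap. Clca1, a secreted regulator of calcium-activated chloride currents and no pore itself, was higher by 1.84 (SE 0.49), but it stood at 4.03 in replicate 1 of the CD24highCD49fmed cells and between -0.34 and 1.28 in the other 4 luminal arrays. Clic4 (-1.03, SE 0.35) and Clic5 (-1.13, SE 0.43) were lower, both with overlapping arrays. Clca3a1 and Clca3a2, adjacent and closely related genes, differed by -0.24 and 0.46 and did not pass.

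One of 3 aquaporins separated the lineages. Aqp5, the water channel of the apical membrane in secreting glands, was 2.15, 2.20 and 2.31 in CD24highCD49fmed and 1.82 and 2.17 in CD24medCD49f-/low arrays. It ranged from -2.17 to 0.29 with a median of -1.49 in basal arrays, and the replicate 3 arrays were the highest of their populations, at -0.22, 0.29 and -0.53. The luminal keratin gene Krt19 was also highest there, at 0.59, 1.15 and 0.54 against -2.84 to -1.28 in the other basal arrays. The median of the 13 luminal markers was highest of each population there too, at -0.67, -0.14 and -0.87. Single markers differed. Prom1 was lowest in replicate 3 of Thy-1+CD24medCD49fhigh (-1.62) and CD24medCD49fmed cells (-1.65), and Ltf in that of CD24medCD49fmed cells (-2.36). The part of luminal cells in these values was not tested. The Aqp5 difference was 3.29 (SE 0.37, adjusted p = 9.05e-07). Aqp3, which also passes glycerol, and Aqp1, the water channel of capillary walls, differed by -0.01 and -0.15 and did not pass.

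Mechanically activated and TRP channels went both ways, with 3 of 9 higher and 2 lower. Piezo2, known from touch-sensing cells, was 2.57, 2.39 and 2.28 in CD24highCD49fmed and 1.40 and 1.84 in CD24medCD49f-/low arrays, above a basal range of -1.78 to 0.58. The difference was 3.18 (SE 0.34, adjusted p = 4.73e-07). Piezo1 was higher by 0.76 (SE 0.27) with overlapping arrays. Its CD24highCD49fmed arrays, at 0.15, -0.04 and 0.04, lay within the basal range of -0.68 to 0.27, and its CD24medCD49f-/low arrays were 1.35 and 0.63. Trpc6, a cation channel opened by diacylglycerol, was higher by 2.48 (SE 0.52), but its basal arrays spread from -2.57 to 1.42. Trpm3, a heat- and steroid-sensitive channel, was lower (-1.97, SE 0.35) without overlap, and Trpv6, the calcium-selective channel of absorbing epithelia, was lower (-1.54, SE 0.37) with overlap. The channel-kinase Trpm7 at 0.41, the calcium-activated Trpm4 and Trpm5 at 0.48 and -0.21, and Trpc1 at -0.92 (adjusted p = 0.0518) did not pass, although every luminal array of Trpc1 lay below its basal arrays.

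Receptor channels were few and had calls in both directions. Both GABA receptor subunits were higher in luminal cells, Gabrp, the pi subunit found outside the nervous system, by 1.51 (SE 0.30) and Gabrg3 by 1.06 (SE 0.28). Luminal and basal arrays overlapped in both, in Gabrp only at 0.34. Gabrg3 had means of 0.26 in CD24highCD49fmed and 1.17 in CD24medCD49f-/low arrays. Glutamate receptor subunits had 2 lower, none higher and 2 without a call. The kainate receptor subunit Grik3 ranged from 0.00 to 1.40 in basal and from -1.63 to -1.10 in luminal arrays, a difference of -2.28 (SE 0.27, adjusted p = 1.77e-06), with probe sets at -0.77 and -3.79. Gria3, an AMPA receptor subunit, was lower (-1.15, SE 0.29). The AMPA subunit Gria4 at -0.52 and the NMDA receptor subunit Grin2b at -0.64 did not pass, the latter with no overlap between luminal and basal arrays. Itpr2, the inositol trisphosphate receptor that releases calcium from the endoplasmic reticulum, was higher by 1.00 (SE 0.27). Its CD24highCD49fmed arrays, at 0.31, 0.19 and 0.06, lay within the basal range of -0.73 to 0.38. Only the CD24medCD49f-/low arrays, at 1.36 and 0.98, lay above it.

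**Figure D3:**
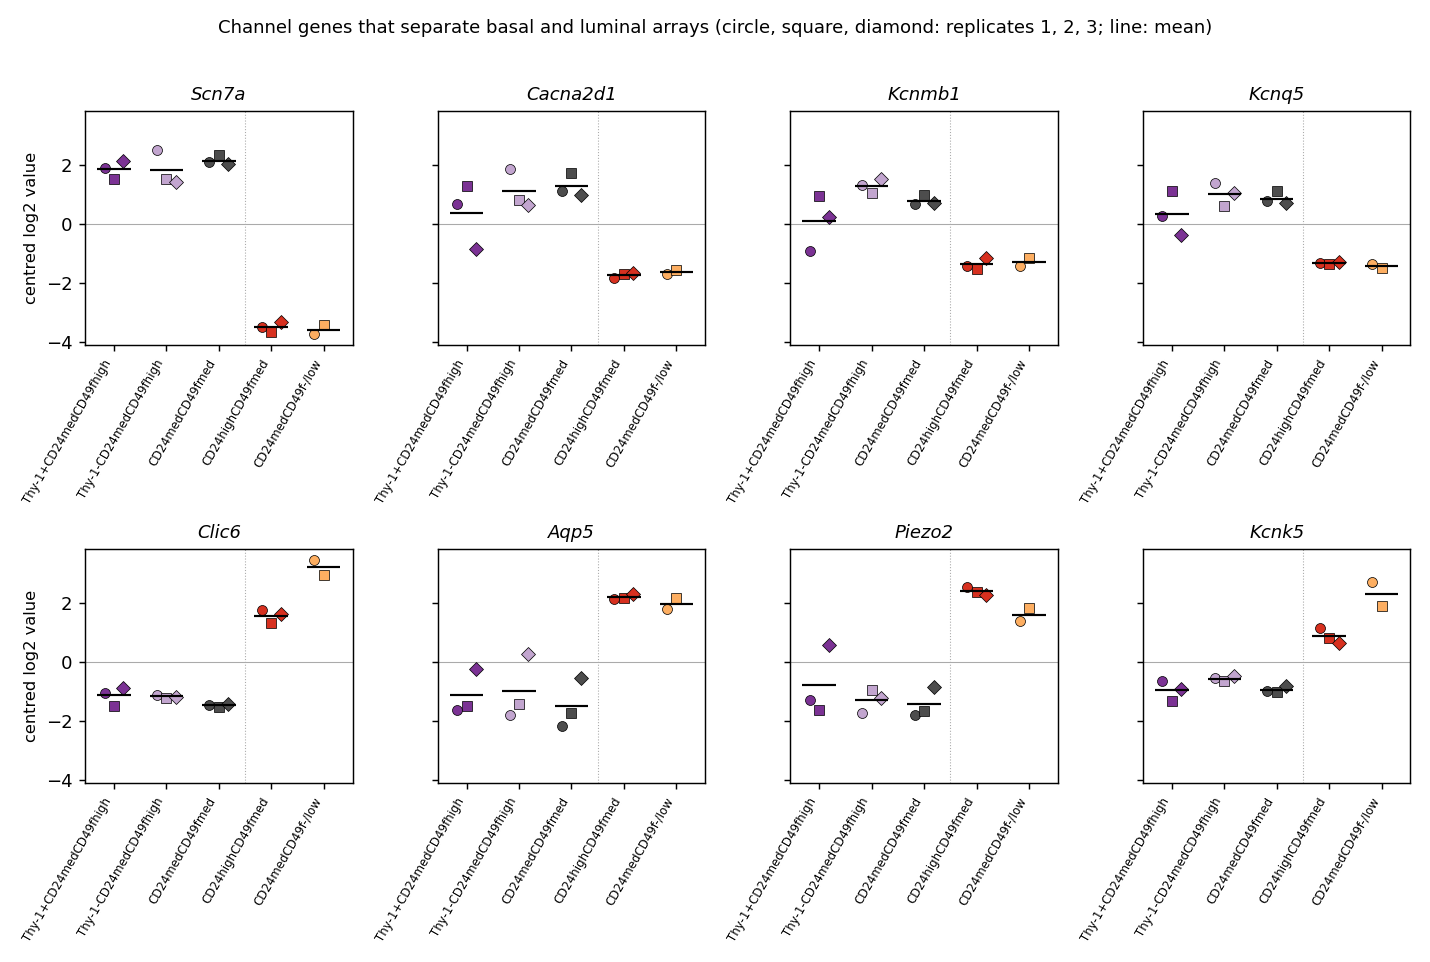
Centred log2 values of 4 channel genes lower and 4 higher in luminal populations, 1 symbol per array and a line at each population's mean. In each panel no luminal array (right of the dotted line) overlaps a basal array; Clic6 and Kcnk5 also differ between both luminal populations.

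Upstream sequence was examined for the members found in RefSeq's promoter table of build GRCm38.p6, 45 genes with 59 windows of 250 bases before a transcription start. Some genes have several windows, which can overlap. Piezo2, Kcnh3, Clic6, Grin2b, Ano9, Gria3, Clca1 and Trpm4 were not in it. Motifs searched on both strands were GGAAGT, the core bound by ETS factors of the Elf family, the core AGATAA that binds proteins of the Gata family, the TATA box core as TATAAA, and the CArG box of serum response factor. GGAAGT occurred in 5 of 15 windows of genes higher in luminal cells (33.3%: Aqp5, Clcn3, Clic1, Kcne3 and Kcnk5), in 1 of 27 windows of genes lower there (3.7%: Kcnmb1), in 3 of 17 windows of uncalled genes (17.6%) and in 19.7% of all 32851 windows. Counted by gene, GGAAGT was in 5 of 13 higher (38.5%), 1 of 16 lower (6.25%) and 3 of 16 uncalled members (18.8%). It was in 22.2% of all genes. TATAAA was in 3 member windows and 12.4% of all, AGATAA in 4 and 9.99%, and the CArG box in 1 and 1.47%. A match is a string of letters in a window and does not show that a factor binds there. The windows of 2 basal and 2 luminal channel genes are shown 5′ to 3′ on the gene's strand. They are chosen examples from the genes that separated the lineages without overlap, and do not show how common a motif is. Kcnmb1 is the 1 gene lower in luminal cells with GGAAGT. Capitals mark AGATAA, read as its reverse complement, at bases -116 to -111 from the start of Scn7a, and GGAAGT at -203 to -198 of Kcnmb1, at -240 to -235 of Aqp5 as its reverse complement and at -184 to -179 of Kcnk5. The windows are chr2:66784911-66785160 on the minus strand, chr11:33962763-33963012 on the plus strand, chr15:99590778-99591027 on the plus strand and chr14:20181783-20182032 on the minus strand.
Scn7a: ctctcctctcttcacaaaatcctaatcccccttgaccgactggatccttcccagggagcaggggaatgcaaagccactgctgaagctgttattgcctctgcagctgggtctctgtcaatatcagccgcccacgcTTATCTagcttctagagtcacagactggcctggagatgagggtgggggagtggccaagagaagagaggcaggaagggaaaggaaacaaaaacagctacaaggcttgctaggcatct
Kcnmb1: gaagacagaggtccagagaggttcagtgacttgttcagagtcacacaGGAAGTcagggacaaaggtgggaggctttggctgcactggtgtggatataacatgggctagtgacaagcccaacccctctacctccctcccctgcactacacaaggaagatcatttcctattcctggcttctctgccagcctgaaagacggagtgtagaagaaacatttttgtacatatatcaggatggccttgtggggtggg
Aqp5: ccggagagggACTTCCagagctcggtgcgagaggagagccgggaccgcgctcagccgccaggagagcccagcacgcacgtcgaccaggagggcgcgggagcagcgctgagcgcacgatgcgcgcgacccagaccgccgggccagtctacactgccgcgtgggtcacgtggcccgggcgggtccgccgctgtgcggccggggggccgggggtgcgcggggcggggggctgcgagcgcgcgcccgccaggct
Kcnk5: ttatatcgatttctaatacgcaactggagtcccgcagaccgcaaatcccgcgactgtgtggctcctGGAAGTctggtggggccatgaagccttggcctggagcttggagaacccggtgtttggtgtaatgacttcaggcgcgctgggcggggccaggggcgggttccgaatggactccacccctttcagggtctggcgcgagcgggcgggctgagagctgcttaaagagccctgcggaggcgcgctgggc

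Both luminal populations were then compared with each other. Of the 53 genes, 1 was higher in CD24highCD49fmed cells (3.02% of all rows were) and 3 were lower (2.57% of all rows), together 4 (5.59% of all rows). With arrays centred on their medians 0 were higher (1.75%) and 6 lower (3.84%), and after quantile normalization 0 were higher (1.92%) and 5 lower (3.42%). The median difference was -0.11 over the channel genes and 0.14 over all rows. In 7 genes the CD24highCD49fmed arrays all lay above (32.2% of all rows) and in 16 they all lay below (15.2%). Clic6 was lower (-1.64, SE 0.23, limma adjusted p = 0.0129), with population means of 1.58 ± 0.23 (SD, n = 3) and 3.22 ± 0.37 (SD, n = 2). Kcnk5 was lower (-1.42, SE 0.28, limma adjusted p = 0.0288), with means of 0.89 ± 0.26 and 2.31 ± 0.59. Itpr2, at 0.31, 0.19 and 0.06 in CD24highCD49fmed and 1.36 and 0.98 in CD24medCD49f-/low arrays, was lower (-0.98, SE 0.20, adjusted p = 0.031), and its 4 probe sets ran from -1.16 to -0.78.

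Clic4 was the gene higher in CD24highCD49fmed cells, at -0.23, -0.43 and -0.29 against -1.04 and -1.08, by 0.75 (SE 0.18, adjusted p = 0.0474). The next genes in that direction did not pass, with differences of 0.79 for Piezo2, 0.94 for Kcnma1 and 0.78 for Ano9. Kcne3 at -1.15 and Piezo1 at -0.94 did not pass either, although their arrays did not overlap. Marker genes moved with the same gates. The paper calls CD24highCD49fmed cells luminal progenitors, yet Kit and Elf5, genes of luminal progenitors, were higher in the other luminal gate. They stood at 1.60 to 2.34 and 2.26 to 2.58 in CD24highCD49fmed and at 3.24 to 3.30 and 3.39 to 3.54 in CD24medCD49f-/low arrays. The hormone receptor genes Esr1 and Pgr stood at 2.08 to 2.62 and 1.72 to 2.27 in the former and at 1.23 to 1.61 and 0.84 to 1.66 in the latter. The myeloid gene Lyz2 was 2.30 in replicate 1 of the CD24medCD49f-/low cells and at most 0.93 in any other array. Ptprc, the other myeloid gene measured, was 0.19 there and highest, at 1.63, in replicate 3 of the Thy-1+CD24medCD49fhigh cells. The part of these differences in the channel values was not tested.

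None of these 4 calls held in each of 10 alternative fits. No channel gene passed without replicate 3 of the CD24highCD49fmed cells, where Clic6 differed by -1.66 (limma adjusted p = 0.0616). None passed in a fit of all 14 arrays (limma adjusted p = 0.264 for Clic6). Without either CD24medCD49f-/low array 1 sample stands for its population, and the spread comes from the other population. Both such fits are among the 10, and their calls rest on the array that remains. Clic6 differed by -1.38 without replicate 1 of these cells. Without that CD24highCD49fmed array 3 of 7190 rows passed. Over the 10 fits the adjusted p of Clic6 ran from 2.5e-05 to 0.264. Clic6 was called in 7 of them, Kcnk5 and Itpr2 in 6 each and Clic4 in 1, and of the genes without a call Piezo1 was called in 6 and Kcne3 in 5.

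**Figure D4:**
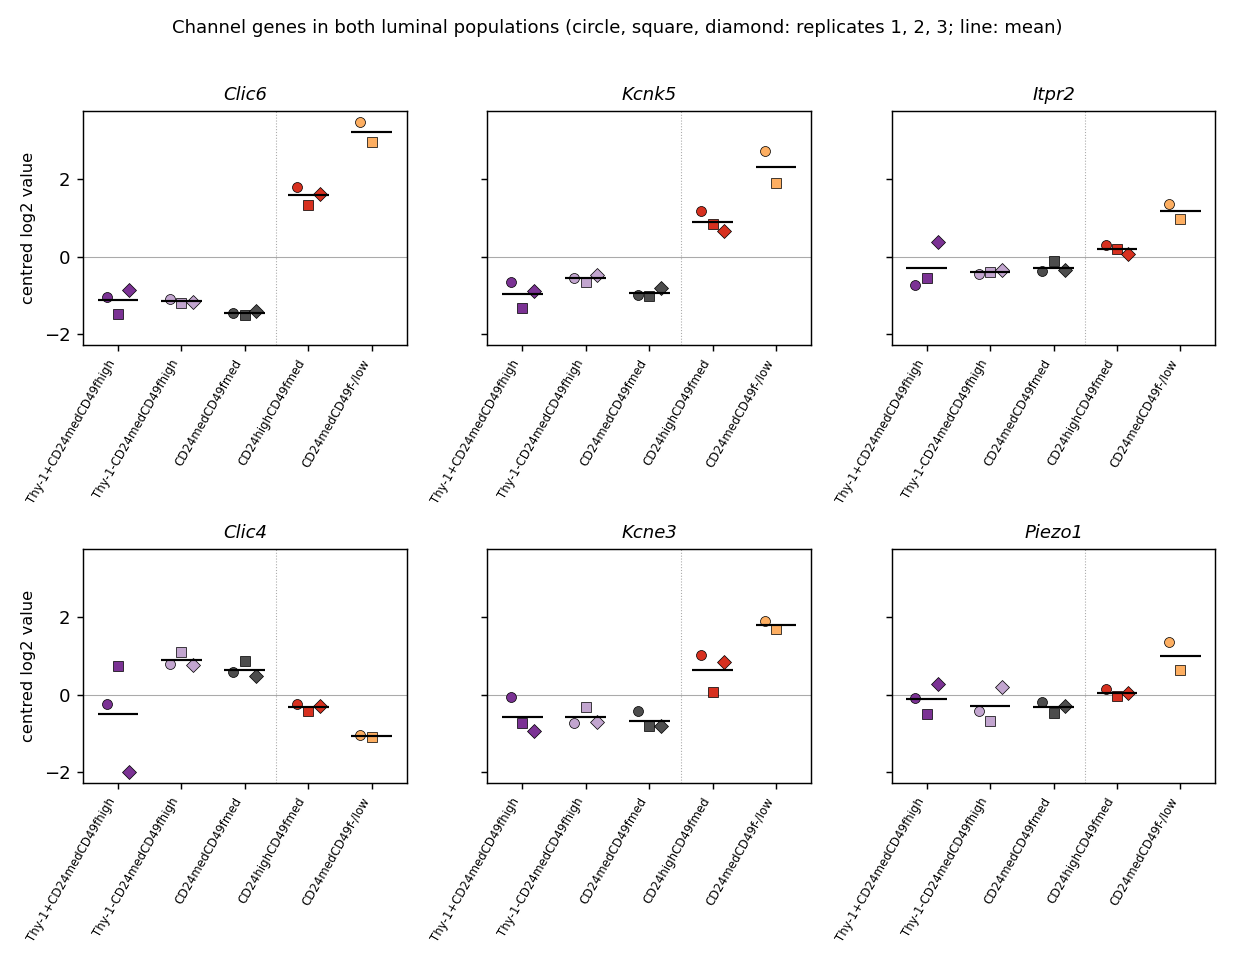
Centred log2 values of 6 channel genes in the 5 populations, 1 symbol per array and a line at each mean. Clic6, Kcnk5 and Itpr2 are higher and Clic4 lower in both CD24medCD49f-/low arrays than in the 3 CD24highCD49fmed arrays; Kcne3 and Piezo1 show the order of Clic6 without passing the test.

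Within the basal layer the design asked whether cells with Thy-1 differ from those without it and from CD24medCD49fmed cells, the differentiated myoepithelial gate. No channel gene passed limma when Thy-1+CD24medCD49fhigh was set against Thy-1-CD24medCD49fhigh, where 0.0278% of all rows were higher and 0.0139% lower (0.0417% either way), and 6 channel genes had an unadjusted p under 0.05. None passed between Thy-1+CD24medCD49fhigh and CD24medCD49fmed cells, with 2 at an unadjusted p under 0.05, or between Thy-1-CD24medCD49fhigh and CD24medCD49fmed cells, with 1, and no row of the table passed in either (0%). For Thy-1+CD24medCD49fhigh cells the median difference of the channel genes was -0.15 from Thy-1-CD24medCD49fhigh and 0.03 from CD24medCD49fmed cells, where all rows had medians of -0.42 and -0.51. With each array centred on its median the channel genes had 0.27 and 0.52. These 3 comparisons share arrays, so their values are given side by side and not as separate evidence.

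Kcna2 had the smallest p in both comparisons of Thy-1+CD24medCD49fhigh cells. Its values there were 2.39, 0.41 and 2.84, against -0.85, 0.18 and 0.07 in Thy-1-CD24medCD49fhigh and -0.20, -0.22 and 0.16 in CD24medCD49fmed arrays. All 3 arrays lay above the other 6 basal arrays, and replicate 2 was the lowest of them. The difference was 2.08 (SE 0.70, limma adjusted p = 0.699) from Thy-1-CD24medCD49fhigh and 1.97 (SE 0.64, limma adjusted p = 0.548) from CD24medCD49fmed cells. Same-numbered arrays of the last pair deviated together, and with the replicate number as a block the difference of 1.97 passed (SE 0.55, limma adjusted p = 0.0424), the 1 channel gene to do so where 0.209% of all rows were higher and 0.556% lower. Without replicate 2 of the Thy-1+CD24medCD49fhigh cells, 2 channel genes were higher than in CD24medCD49fmed cells (Kcna2, limma adjusted p = 0.0387, and Kcnj15) and 6 lower (Ano1, Kcnip3, Kcnk1, Trpm3, Trpm4 and Trpm7), where 1.14% and 10.8% of all rows were. Over 11 alternative fits the adjusted p of Kcna2 in that comparison ran from 0.0387 to 0.884.

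Kcnj15, an epithelial inward rectifier, was 3.40, -0.37 and 1.41 in Thy-1+CD24medCD49fhigh arrays and between -0.35 and -0.10 in the other 6 basal arrays. Its differences of 1.70 (SE 0.72) and 1.70 (SE 0.77) did not pass. The AMPA receptor subunit Gria4 had the same order of replicates, at 2.42, -0.27 and 0.85, with a difference of 1.22 (SE 0.66) from CD24medCD49fmed cells that did not pass. Kcna2, Kcnj15 and Gria4 were high in the 2 arrays, replicates 1 and 3, in which some genes of other cell types were high. The collagen gene Col1a2 stood at 2.43, -0.03 and 3.49 in replicates 1, 2 and 3 of that gate, while the fibroblast receptor Pdgfra was 0.16, 0.21 and 1.18. Of 4 Schwann cell genes, Cdh19 was 4.10, 0.53 and 3.96 and Mbp 2.55, 0.17 and 2.49, whereas Sox10 was -2.79, 0.54 and 0.10 and Erbb3 was -0.13, -1.68 and 0.77, below its luminal arrays. The methods also list an antibody to CD140α, the product of Pdgfra, among those used for sorting. The part of such cells in the channel values was not tested. Replicate 1 of the Thy-1+CD24medCD49fhigh cells held the highest value of 12 channel genes (22.6%, against 13.7% of all rows) and the lowest of 8 (15.1%, against 35.1% of all rows).

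In the opposite direction, Kcnk1 differed by -1.41 (SE 0.69) and Clic4 by -1.40 (SE 0.70) in Thy-1+CD24medCD49fhigh relative to Thy-1-CD24medCD49fhigh arrays, and Kcnmb1 by -1.20 (SE 0.69), none of which passed. Against CD24medCD49fmed cells, Trpm4 differed by -1.26 (SE 0.60) and Trpm7, which conducts magnesium, by -1.30 (SE 0.67). Clic4 and Trpm7 were lowest in replicate 3 of the Thy-1+CD24medCD49fhigh cells, at -2.00 and -2.36. Between Thy-1-CD24medCD49fhigh and CD24medCD49fmed cells the differences ran from -1.24 for Clic5 (SE 0.54) to 1.10 for Trpc6 (SE 0.83), and none passed.

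Some channel genes were high in replicate 1 arrays of basal gates. Aqp1 was 2.37, 1.30 and 2.47 in the replicate 1 arrays gated Thy-1+CD24medCD49fhigh, Thy-1-CD24medCD49fhigh and, last, CD24medCD49fmed, and between -1.41 and -0.18 in their other arrays. It was also highest in replicate 1 of both luminal populations, at 1.56 against -0.30 in CD24medCD49f-/low and 0.12 against -1.07 and -1.21 in CD24highCD49fmed arrays. Pecam1, the endothelial gene that encodes the CD31 used to remove endothelial cells, was 3.08, 1.19 and 2.11 in those basal replicate 1 arrays and at most 0.84 in the others, with -0.67 and -0.62 in the luminal replicate 1 arrays. Clic5, known from the cytoskeleton of microvilli and of endothelial and hair cells, was 2.72, -0.36 and 1.93 in the basal replicate 1 arrays and at most 0.80 elsewhere. Abcc9, which lies next to Kcnj8 and encodes the regulatory subunit of its channel, was 3.02, -0.72 and 1.34 in the same arrays and at most 0.68 in the rest. Of the other 3 pericyte genes measured, Rgs5 was 4.39, -0.87 and 2.70 and Pdgfrb 2.35, 0.84 and 1.06 there, whereas Notch3 was -0.23, -1.92 and -0.55 and was highest in luminal arrays, at 0.76 to 1.99. The part of vascular cells in these values was not tested. Without the replicate 1 arrays of Thy-1+CD24medCD49fhigh and CD24medCD49fmed cells, 17 channel genes were higher (26.3% of all rows) and 16 lower (18.1%) in luminal than in basal cells.

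**Figure D5:**
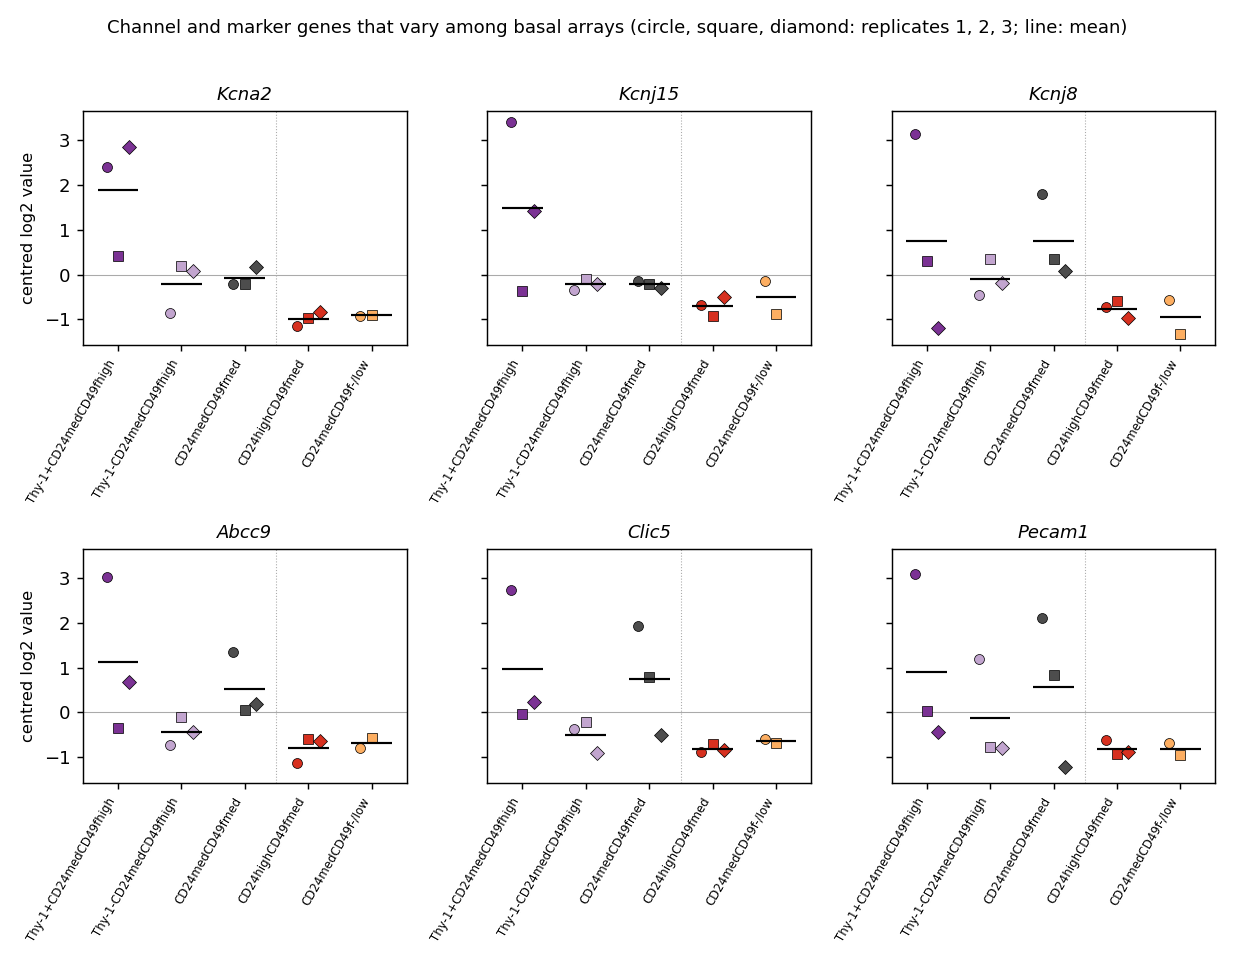
Centred log2 values of 4 channel genes, of Abcc9 (a pericyte gene and subunit of the Kcnj8 channel) and of Pecam1 (CD31, endothelial) in the 5 populations, 1 symbol per array and a line at each mean. Kcna2 is high in Thy-1+CD24medCD49fhigh replicates 1 and 3 (circle and diamond), whereas Kcnj8, Clic5, Abcc9 and Pecam1 are high in the replicate 1 arrays of Thy-1+CD24medCD49fhigh and CD24medCD49fmed cells.

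Other genes of ion transport and cell coupling, listed by symbol outside the channel families, were measured for 30 genes. Between luminal and basal populations 10 were higher (27.7% of all rows were), 7 lower (17.4% of all rows) and 13 did not pass. The higher genes included Atp1b1, a subunit of the sodium pump, by 2.35 (SE 0.33), its regulator Fxyd2 by 1.83 (SE 0.30), and Scnn1b, a subunit of the epithelial sodium channel, by 1.11 (SE 0.26). The gap junction gene Gjb2 was higher by 2.02 (SE 0.30), whereas the gap junction genes Gja1 and Gjc1 were lower (-2.58, SE 0.25 and -2.10, SE 0.37). Lrrc8e and Lrrc8c, subunits of the volume-regulated anion channel, differed by 1.27 (SE 0.31) and -2.67 (SE 0.42). Nalcn, the sodium leak channel, was lower (-1.62, SE 0.35). Between both luminal populations 1 was higher (3.02% of all rows) and 2 lower (2.57%). None passed in the basal comparisons, where at most 0.0417% of all rows did.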

How the data were processed

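RNA of 14 sorted samples was hybridized to Affymetrix mouse whole-genome arrays after two-cycle labelling. The authors deposited log2 values in a single table. Per the methods, arrays were normalized with RMA (robust multichip average) using MIDAS, and Cluster 3.0 served to filter and mean-centre the probe sets. GCRMA is named as well in the submitters' notes, which give no version. The smallest row range was 2.00 and the largest row mean 2.9e-07 in size. Signal over background is unknown, and the number of arrays limits the precision.

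Probe sets with 1 symbol (8499) were averaged per gene, and 199 with several symbols and 947 with none were kept as rows, 7190 in all. Of the members, 35 had 1 probe set and 18 several. Two-sided tests came from linear models fitted and moderated with limma (version 3.58.1, under R 4.3.3), and p-values were adjusted over all rows by the Benjamini-Hochberg method. Rank products, which the methods name, were not run. The script was tested on simulated data. Named genes were up to 12 called per direction by size, or the 3 of smallest p where fewer than 3 were called, plus extremes of role groups. Members, lists and tests were chosen with earlier results of these data known. The sort gate called CD24medCD49fmed in the labels is CD24lowCD49fmed in the methods. Same-numbered arrays paired CD24medCD49fmed with Thy-1+CD24medCD49fhigh (correlations of deviations 0.386 to 0.391) and with Thy-1-CD24medCD49fhigh cells (0.328 to 0.558), from the data and not from the labels.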

Additional observations from a re-analysis of the deposited data

How the results depend on the processing

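Between luminal and basal populations no called channel gene changed direction in 21 alternative fits. Leaving out 1 array gave 14 to 20 higher and 13 to 24 lower, the most without replicate 2 of the Thy-1+CD24medCD49fhigh cells, where all rows moved as well (16.4% to 39.2% higher, 13.2% to 20.2% lower). The replicate block gave 17 and 18 (29% and 18.7% of all rows). Leaving out replicates 1 and 3 of the Thy-1+CD24medCD49fhigh cells gave 17 and 18 (27.2% and 22.5% of all rows). That fit was chosen after seeing the data, as was the fit without 2 replicate 1 arrays. Calls between CD24highCD49fmed and CD24medCD49f-/low cells, 1 higher and 3 lower, moved most. They were 0 and 0 with all 14 arrays in 1 fit, 4 and 9 with the replicate block (7.05% and 4.48% of all rows), 0 and 6 with arrays centred on their medians, 0 and 5 after quantile normalization, 3 and 6 with array weights, and 0 to 1 and 0 to 7 when 1 array was left out (0 and 0 without CD24medCD49f-/low replicate 1 or CD24highCD49fmed replicate 3). No gene was higher with each probe set on its own row or with an absolute log2 difference of 1 or more required. The share over all rows was not counted for array weights or for the fit of all 14 arrays. The cause was not tested. These gates share 2 replicate numbers (correlations 0.296 and 0.151), so the block there rests on a number alone.

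With Thy-1+CD24medCD49fhigh set against Thy-1-CD24medCD49fhigh, array weights gave 1 higher (Kcna2) and 1 lower (Clic4), the replicate block gave 0, and same-numbered arrays correlated at -0.160 to 0.245. Against CD24medCD49fmed cells the block gave 1 higher and 0 lower, and leaving out 1 array 0 to 2 higher and 0 to 6 lower. The block changed no call between Thy-1-CD24medCD49fhigh and CD24medCD49fmed cells (0 and 0). Low signal could not be screened because the values are centred.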
